A study of Homo sapiens with 12 samples.

Results

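High-fat medium (HFM) was compared with growth medium (GM) after 24 hours of incubation on 6 of the 12 arrays of the study, 3 for each medium. All carried labelled cRNA from total RNA of Sk-hep1, an established human cell line from the ascites of a liver adenocarcinoma that the labels class as endothelial. GM was based on DMEM and HFM on DMEM/F12, so the added fat and the basal medium cannot be told apart, and no source used here names the fat or its dose. Cells of all groups had been grown in DMEM with fetal bovine serum, penicillin, streptomycin and L-glutamine. The labels do not say whether the arrays of a group came from separate cultures, and the p-values then cover array-to-array spread alone, which may be technical. The comparison covers every gene with a probe set, 19775 in all, each read through the probe set with the highest mean over the 12 arrays. Of these, 13130 reached log2 4 on at least 3 arrays and were tested. Every level below is a log2 value of 1 probe set, and every difference is HFM minus GM on the log2 scale, so that 1 stands for a 2-fold difference.

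Cells that meet excess saturated fatty acid or a shortage of membrane lipid often load the endoplasmic reticulum, the compartment where secreted and membrane proteins fold. Its sensors IRE1 (gene ERN1), PERK (EIF2AK3) and ATF6 then switch on chaperones, a degradation route for misfolded proteins, and, through ATF4 and CHOP (DDIT3), genes of stress and growth arrest. Sterol and fatty acid synthesis is governed at the same membrane, where INSIG proteins hold back the SREBP transcription factors while sterol is plentiful. Progress through the cell cycle rests on E2F factors, which drive replication genes before division, and on the DREAM and MuvB complexes, which act through short promoter elements of mitotic genes. The secretory route also builds collagen and the other proteins of the extracellular matrix.

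The promoter letters of some of these programmes are known, and the windows below show where genes of the lists carry them. The endoplasmic reticulum stress element (ERSE) was searched as CCAAT and CCACG with 9 free bases between them, and ERSE-II as ATTGG and CCACG with 1. Both hold the CCAAT box, read forward or in reverse, which by itself stood in 37.0% of promoters. Searched on both strands of the 250 bases before each start in the RefSeq promoter table (GRCh38.p14), ERSE was found in 25 of 27305 genes (0.0916%) and ERSE-II in 18 (0.0659%). Of 29 chaperone and folding genes with a promoter entry, 7 held ERSE (24.1%) and 2 held ERSE-II (6.9%). Each of these genes is shown, whatever its value, together with XBP1, a transcription factor of the response, and HERPUD1, a degradation component. The windows read 5′ to 3′ along the gene's own strand, with the element in capitals. A match is a description of the letters and not a shown binding site.
HSPA5 (chr9:125241366-125241434, minus strand): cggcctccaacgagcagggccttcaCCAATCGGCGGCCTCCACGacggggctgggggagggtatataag
XBP1 (chr22:28800578-28800646, minus strand): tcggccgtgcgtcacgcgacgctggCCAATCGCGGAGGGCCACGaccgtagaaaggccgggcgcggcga
ERO1B (chr1:236282158-236282208, minus strand): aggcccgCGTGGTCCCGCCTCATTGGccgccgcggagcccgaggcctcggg
HSP90B1, first element (chr12:103930191-103930259, plus strand): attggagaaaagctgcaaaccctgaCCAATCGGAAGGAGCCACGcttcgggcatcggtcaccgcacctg
HSP90B1, second element (chr12:103930296-103930364, plus strand): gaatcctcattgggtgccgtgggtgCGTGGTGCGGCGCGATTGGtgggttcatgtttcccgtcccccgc
PDIA6 (chr2:10812828-10812896, minus strand): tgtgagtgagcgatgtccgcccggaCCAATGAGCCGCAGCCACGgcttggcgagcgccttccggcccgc
CALR (chr19:12938359-12938427, plus strand): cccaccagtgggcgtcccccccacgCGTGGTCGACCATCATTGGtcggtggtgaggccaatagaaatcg
CANX (chr5:179698753-179698821, plus strand): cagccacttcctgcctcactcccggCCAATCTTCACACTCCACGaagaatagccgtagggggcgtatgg
CRELD2 (chr22:49918529-49918597, plus strand): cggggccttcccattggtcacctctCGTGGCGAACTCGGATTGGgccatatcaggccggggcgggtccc
HERPUD1, ERSE-II (chr16:56932000-56932060, plus strand): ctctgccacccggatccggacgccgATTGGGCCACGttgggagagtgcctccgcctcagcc
SDF2L1, ERSE-II (chr22:21642089-21642149, plus strand): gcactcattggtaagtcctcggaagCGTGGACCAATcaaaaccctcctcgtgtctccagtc
HYOU1, ERSE-II farther along the chromosome (chr11:119057355-119057415, minus strand): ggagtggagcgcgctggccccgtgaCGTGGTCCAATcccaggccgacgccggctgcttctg
HYOU1, other ERSE-II (chr11:119057249-119057309, minus strand): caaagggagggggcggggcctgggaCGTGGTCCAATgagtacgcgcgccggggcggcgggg

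Mitotic genes were searched for the cell cycle homology region (CHR), written TTTGAA, letters short enough to be met in many promoters. CHR stood in 16.1% of all promoters and in 12.1% of those of the genes tested. Among the 47 mitosis, kinetochore and spindle genes with a promoter entry, 27 held it (57.4%), against 2 of 42 replication and S-phase genes (4.76%). The share was 12.6% among all genes called lower and 12.3% among those called higher. Of the 27 mitosis genes with CHR, 23 were called lower, 0 higher and 4 were not called. In the whole mitosis list, with or without CHR, 47 of 54 were called lower (87%), against 37.5% of all genes tested. Whether mitosis genes with and without CHR differed was not tested. The windows of 4 genes with larger falls are shown, the motor KIF11, the separase ESPL1, the spindle protein HMMR and the kinetochore subunit SPC25. For contrast, 1 window each is shown of the genes that were not called, the motor KIF18A (0.07), the kinase CDK1 (-0.08), ECT2 (-0.05) and ANLN (-0.05), which act at entry to mitosis and in the cleavage of the cell. These were chosen after their values were seen.
KIF11 (chr10:92593082-92593127, plus strand): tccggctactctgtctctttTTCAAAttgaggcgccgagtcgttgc
ESPL1 (chr12:53268248-53268293, plus strand): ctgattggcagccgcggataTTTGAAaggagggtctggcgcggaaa
HMMR (chr5:163460584-163460629, plus strand): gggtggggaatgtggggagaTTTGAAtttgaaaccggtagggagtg
SPC25 (chr2:168890652-168890680, minus strand): ttaTTTGAAgccgataaatgacttgtcgt
KIF18A (chr11:28108157-28108186, minus strand): gctgaggaaagtggcttgggTTTGAAtatt
CDK1 (chr10:60778389-60778434, plus strand): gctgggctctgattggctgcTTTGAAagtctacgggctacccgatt
ECT2 (chr3:172750591-172750636, plus strand): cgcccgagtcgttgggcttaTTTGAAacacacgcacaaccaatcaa
ANLN (chr7:36389822-36389861, plus strand): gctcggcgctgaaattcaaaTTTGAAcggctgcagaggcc

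Medium changed a large share of the transcriptome at 24 hours, mostly by small steps. Genes were called where the limma test, adjusted by Benjamini and Hochberg over all 13130 genes, gave an adjusted p under 0.05. By that rule 7623 genes were called (58.1%), 2700 higher in HFM (20.6%) and 4923 lower (37.5%). A difference of 2-fold or more was reached by 983 called genes (7.49%), 300 of them higher (2.28%) and 683 lower (5.2%), while 4074 calls lay under 0.5. The 3 HFM arrays lay entirely above or below the 3 GM arrays for 68.7% of genes. The median difference over all genes was -0.08. With every array shifted to a common median, that median became 0.10 and the balance of calls turned to 4852 higher and 3434 lower. A repeated quantile normalisation moved it to 0.02 and gave 3909 higher and 4056 lower, so the balance of rises and falls depends on the scaling. This holds for 2-fold differences too, of which 475 were higher and 444 lower after centring, and 405 and 476 after repeated quantile normalisation. As shares of genes tested, centring called 63.1% (37% higher and 26.2% lower) and repeated quantile normalisation 60.7% (29.8% and 30.9%). The mean of each gene's probe sets called 59.3% (22% and 37.3%), the second brightest probe set 59.9% (23.5% and 36.4%), and probe sets of the type matched to 1 gene 58.7% (21.8% and 37%). The difference between media at 24 hours differed from that at 12 hours for 6931 genes (52.8%) by the interaction term of the same limma fit.

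The arrays themselves were close within a medium. Correlations across genes were 0.998 to 0.999 between arrays of the same medium and 0.968 to 0.970 between media. The array number limits the precision, and the median standard error of a difference was 0.08. The RNA quality controls differed with the medium: the 3′ minus 5′ difference of ACTB was 1.02 to 1.12 in GM and 1.53 to 1.64 in HFM, and that of GAPDH 0.14 to 0.18 and 0.26 to 0.30. For both, the two-sided exact permutation test gave p = 0.1, which is the lowest value possible with 3 arrays a group, and the part of RNA quality in the results was not tested. The label of an endothelial cell was set against 19 endothelial markers. Of these, 11 were below the filter, among them CDH5, VWF and KDR, and the mean level of the list per array was 3.78 to 3.81 in GM and 3.67 to 3.75 in HFM. Of 15 hepatocyte markers with a probe set, 9 were below the filter, ALB and APOA1 included, with list means of 3.57 to 3.62 and 3.58 to 3.64. Leukocyte markers had list means of 3.47 to 3.54 and 3.48 to 3.52, epithelial markers 6.99 to 7.03 and 6.89 to 6.99, and mesenchymal markers 6.05 to 6.21 and 6.11 to 6.17. The keratin KRT18 was read at a mean of 13.56 in GM and 13.30 in HFM.

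**Figure D1:**
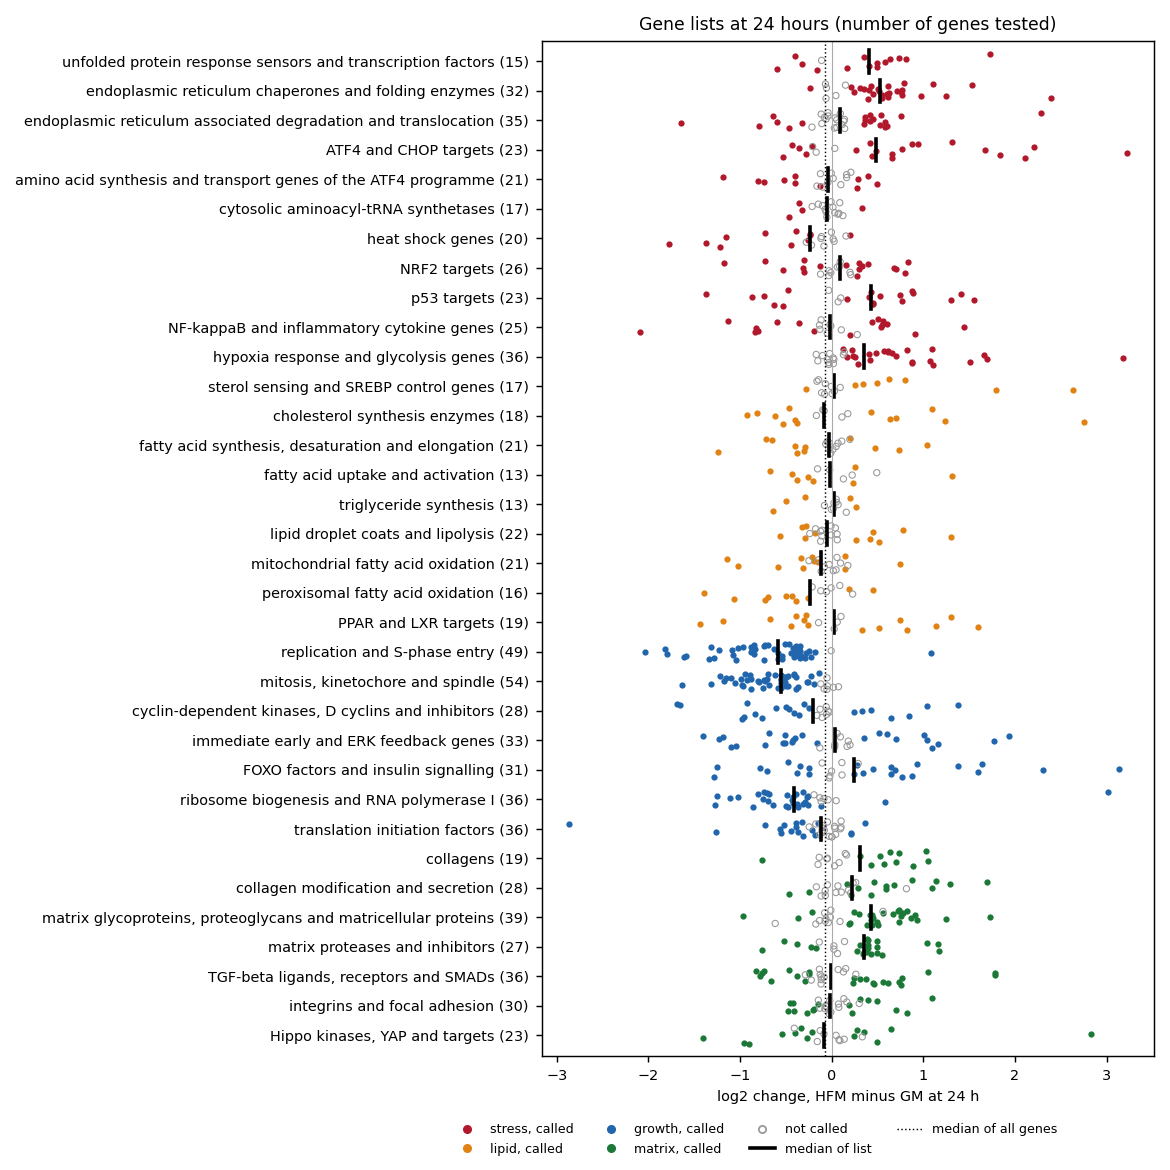
Each point is 1 tested gene of a list, placed by its log2 difference between HFM and GM at 24 hours. Coloured points passed the test and open points did not, black bars are list medians and the dotted line is the median of all genes tested at -0.08. Replication and mitosis genes lie almost wholly to the left, and chaperone, hypoxia and matrix glycoprotein genes mostly to the right.

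Genes of endoplasmic reticulum stress were higher in HFM. DDIT3, which encodes the transcription factor CHOP, had levels of 8.34, 8.34 and 8.16 on the GM arrays and 11.51, 11.55 and 11.42 on the HFM arrays. All HFM arrays stood far above all GM arrays, a 9.29-fold difference (3.22 ± 0.09, SE, limma adjusted p = 1.41e-10). HSPA5, the chaperone BiP that keeps the sensors inactive until unfolded protein draws it away, went from 11.95, 11.99 and 11.99 to 13.45, 13.53 and 13.53 (2.88-fold). DNAJB9, a co-chaperone of BiP, had 8.65, 8.63 and 8.68 in GM against 11.05, 10.99 and 11.10 in HFM (5.25-fold). HERPUD1, which gathers the degradation complex in the membrane, had 10.59, 10.64 and 10.57 against 12.87, 12.88 and 12.90 (4.87-fold). In each of these genes the gap between media was many times the spread of either group.

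The sensors and transcription factors rose more modestly. Of 15 tested, 10 were called higher and 4 lower, with a median of 0.41, while 20.6% of all genes were higher. With the second brightest probe set, which 11 of them have, 3 were higher and 2 lower, with a median of -0.02. ERN1 rose from 5.66, 5.79 and 5.59 to 7.43, 7.37 and 7.43 (1.73 ± 0.10). EIF2AK3 rose by 0.74 and ATF6 by 0.64. Of the other ATF6 probe sets 2 rose, and 1 stood at -0.13 and was not called. XBP1, whose mRNA IRE1 splices, read 7.82, 8.05 and 8.08 in GM and 8.62, 8.85 and 8.89 in HFM (0.81 ± 0.09). The other probe set of XBP1 stood at -0.22 and was not called. The arrays do not separate the spliced from the unspliced form of XBP1. ATF4, whose activity is set mainly at translation, differed by -0.16 (limma adjusted p = 0.0363), a call that was lost without any 1 of the 6 arrays and whose sign turned to 0.02 after median centring. NFYC, a subunit of the CCAAT-binding factor, fell by 0.60.

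Among chaperones and folding enzymes 26 of 32 rose and 1 fell, while 20.6% of all genes were higher. The mean level of the list was 9.39 to 9.40 on the GM arrays and 9.95 to 9.97 on the HFM arrays, without overlap. Single genes also did not overlap in 68.7% of cases. Means of other lists lay apart too, as for NRF2 targets (8.14 to 8.16 against 8.20 to 8.21). DNAJC3, which limits PERK, rose by 1.10, ERO1B, which passes oxidising equivalents to protein disulphide isomerases, by 0.97, and UGGT2, a glucosyltransferase that marks unfolded glycoproteins, by 1.24. Other probe sets of UGGT2 were called both ways. Among the genes shown for their ERSE, HSPA5, ERO1B, XBP1 and HSP90B1 rose by 1.53, 0.97, 0.81 and 0.77. PDIA6, CALR and CANX rose by 0.50, 0.39 and 0.35, whereas CRELD2 stood at 0.15 and did not pass. Of all 15 tested genes with ERSE, 8 were higher, 1 was lower and 6 were not called. HYOU1 and SDF2L1, shown for ERSE-II, rose by 0.71 and 0.75. Of 16 tested genes with ERSE-II, 8 were higher, 2 lower and 6 not called. Among tested genes with a promoter entry, ERSE stood in 0.364% of those higher, 0.0243% of those lower and 0.14% of those not called. For ERSE-II the shares were 0.364%, 0.0486% and 0.14%. A link between the letters and the direction of change was not tested.

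Degradation and translocation genes were mixed. Of 35, 13 rose, 6 fell and 16 did not pass, with a median of 0.09, and after median centring 21 rose and 5 fell. HERPUD1 and SEL1L (0.76), the scaffold of the ubiquitin ligase of this route, rose. FAF2, which recruits the extracting ATPase to the membrane, fell by 1.65 through its brightest probe set, and its other probe set stood at -0.07 and was not called. NPLOC4, an adaptor of the same ATPase, fell by 0.64, and the ubiquitin-conjugating enzyme UBE2J2 by 0.80.

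Among the targets of ATF4 and CHOP most stress genes rose, while amino acid genes rose and fell in about the shares of all genes. Of 23 stress targets 15 rose, 5 fell and 3 did not pass, with a median of 0.49. As shares, 65.2% rose and 21.7% fell, against 20.6% and 37.5% of all genes tested. ATF3, a repressor of the same family, read 6.74, 6.61 and 6.55 in GM and 8.73, 8.69 and 8.79 in HFM. PPP1R15A, which restores translation by dephosphorylating eIF2 alpha, rose by 2.20 ± 0.07 (limma adjusted p = 4.53e-10). GDF15, a secreted stress hormone, rose from 10.93, 10.94 and 10.93 to 12.78, 12.75 and 12.77. STC2 rose by 1.67 on one probe set while its other one did not differ (6.88 in both media). TRIB3, a pseudokinase that CHOP induces, differed by -0.21 (limma adjusted p = 0.0357, a call lost without any one of 5 of the 6 arrays, GM replicates 1 to 3 and HFM replicates 2 and 3), and CHAC1, which degrades glutathione, fell by 0.54. The number of falls in this list went from 5 to 3 without GM replicate 1 or 3 or HFM replicate 2, and to 2 without GM replicate 2 or HFM replicate 3 or after either rescaling.

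Of 21 amino acid synthesis and transport genes of the ATF4 programme, 4 rose, 7 fell and 10 did not pass. These shares, 19% higher and 33.3% lower, were near the 20.6% and 37.5% of all genes. The balance turned to 8 rises and 6 falls after median centring and to 7 and 6 after repeated quantile normalisation. ASNS, asparagine synthetase, rose by 0.49. The transporters SLC38A1 (10.84, 10.81 and 10.90 against 9.66, 9.67 and 9.64), SLC7A5 (-0.74) and SLC1A4 (-0.81) fell. The tRNA synthetases were mostly not called: 1 of 17 rose and 3 fell, and median centring turned this to 10 rises and 2 falls. Of these, TARS1 fell by 0.47 on its brightest probe set while a dimmer one rose by 1.68. Without GM replicate 3 the falls were 5.

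Cytosolic heat shock genes did not share the rise of the chaperones of the endoplasmic reticulum. Of 20 tested, 10 fell, 1 rose and 9 did not pass (50% lower and 5% higher, against 37.5% and 20.6% of all genes). After median centring 7 fell and 4 rose. The rise, HSP90AA1 at 0.19, was called only without GM replicate 3 when single arrays were left out. HSPA2, a chaperone of the Hsp70 family, had 8.62, 8.67 and 8.57 in GM and 6.80, 6.83 and 6.91 in HFM (-1.78 ± 0.05). DNAJA1, a co-chaperone, fell by 1.37, and BAG3, which couples Hsp70 to autophagy, differed by -1.22. HSPH1 fell by 0.44. DNAJB1 fell by 0.73 on its brightest probe set, while its other one rose by 0.33.

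Oxidative stress, p53 and inflammatory genes moved both ways. Of 26 NRF2 targets, 10 rose and 7 fell (38.5% and 26.9%, against 20.6% and 37.5% of all genes). HMOX1, which breaks down haem, rose by 0.80, while GCLM, a subunit of glutathione synthesis, fell by 0.73 and KEAP1, the inhibitor of NRF2, by 1.18. Of 23 p53 targets, 14 rose and 6 fell (60.9% and 26.1%). The rises were led by the stress genes GADD45B (1.55), GADD45A (1.41) and TP53INP1 (1.30), while CDKN1A, the best known arrest gene of the list, rose by 0.43 and TP53I3 fell by 1.37. Of 25 NF-kappaB and cytokine genes, 9 rose and 8 fell (36% and 32%). IL6 had 8.28, 8.15 and 8.25 in GM and 6.33, 6.09 and 5.98 in HFM, a 4.27-fold lower level (limma adjusted p = 2.28e-08). NFKBIZ, a nuclear cofactor of NF-kappaB, rose by 1.44 and the chemokine CXCL8 by 0.90, against a fall of 1.13 for the inhibitor NFKBIE. The cytokine list therefore had no shared direction.

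Hypoxia response and glycolysis genes rose or did not pass: 24 of 36 rose and 0 fell by limma (1 was lower at an unadjusted p under 0.05, VEGFA at -0.17). In other settings 1 fell: without GM replicate 1, after repeated quantile normalisation, and with the mean of probe sets. The same held with a filter at log2 5, a robust eBayes or only the 24-hour arrays. With the second brightest probe set 9 of 18 rose and 2 fell. SLC2A3, a glucose transporter of high affinity, had 7.11, 7.16 and 6.97 in GM and 10.21, 10.29 and 10.28 in HFM, a 9.07-fold difference. PDK1, which inhibits pyruvate dehydrogenase, rose by 1.66, the enolase ENO2 by 1.51 and the peptide hormone ADM by 1.10. P4HA1 of this list also belongs to collagen synthesis.

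**Figure D2:**
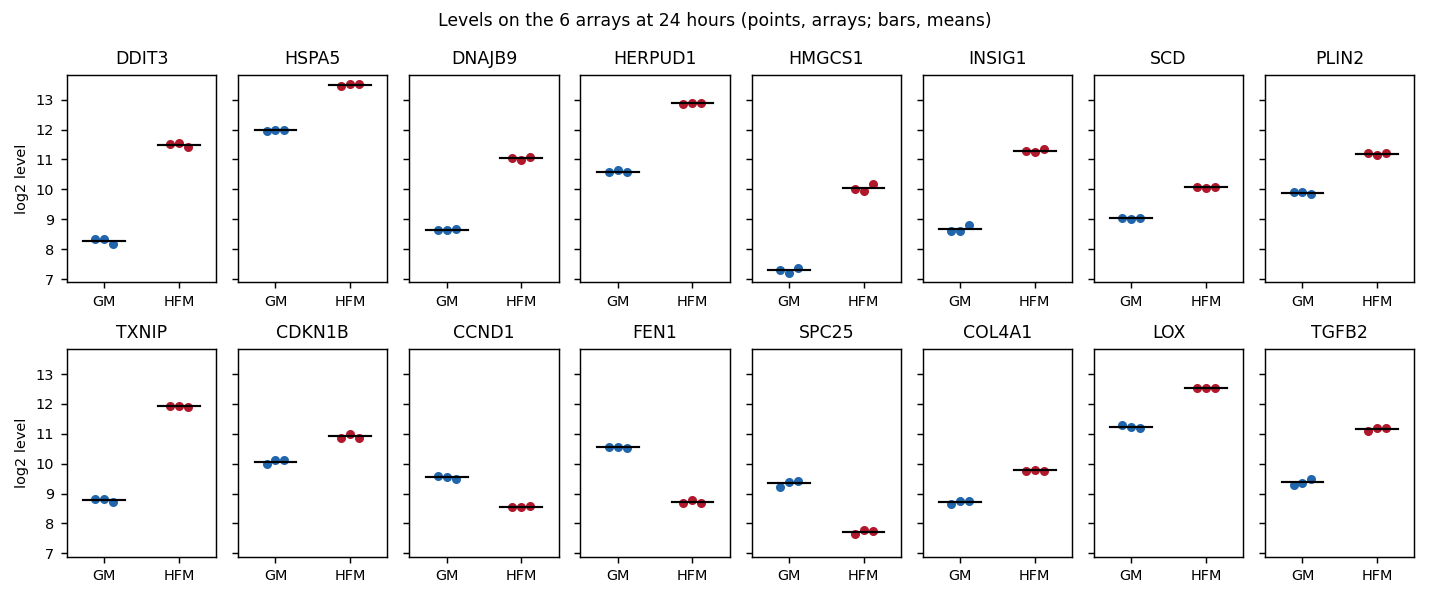
Points are the log2 levels of 16 genes on the 3 GM and 3 HFM arrays at 24 hours, and bars are group means. The media do not overlap in any panel, with DDIT3 near 8.3 in GM and 11.5 in HFM and FEN1 near 10.5 in GM and 8.7 in HFM.

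Lipid genes did not move as one programme, and the largest rises were in sterol sensing and a few enzymes of cholesterol synthesis. INSIG1 read 8.60, 8.62 and 8.79 in GM and 11.28, 11.26 and 11.36 in HFM, a 6.18-fold difference (2.63 ± 0.10, limma adjusted p = 1.35e-09). HMGCS1, the cytosolic synthase of HMG-CoA, had 7.31, 7.20 and 7.38 against 10.02, 9.96 and 10.18, a 6.75-fold difference. STARD4, a carrier of cholesterol between membranes, rose by 1.79 and INSIG2 by 0.80. MBTPS2, a protease that releases SREBP, rose by 0.50 and NPC1, which exports cholesterol from lysosomes, by 0.62. Of the dimmer probe sets of NPC1, 1 rose by 1.38 and 1, near background, differed by -0.48. Altogether 7 of 17 sterol sensing genes rose, 1 fell (0 without GM replicate 2 or HFM replicate 1 or 3) and 9 did not pass.

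The SREBP genes themselves were not called. SREBF1 had 7.01, 6.89 and 6.67 in GM and 6.91, 6.84 and 6.84 in HFM, and SREBF2 had 6.34, 6.40 and 6.42 against 6.35, 6.08 and 6.52, so both overlapped between media. Another, dimmer probe set of SREBF2 rose by 0.85. Along the cholesterol pathway, members rose and fell side by side: of 18 enzymes 6 rose, 7 fell and 5 did not pass, against 8 rises and 7 falls after median centring or repeated quantile normalisation. After HMGCS1, the rises were largest for MSMO1 (1.23), a sterol demethylating oxidase, and SQLE (1.09), the squalene epoxidase. LSS, which closes the sterol rings directly after SQLE, had 8.11, 8.13 and 8.10 in GM and 7.25, 7.20 and 7.12 in HFM (-0.92 ± 0.06), and the kinase PMVK fell by 0.82.

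Fatty acid synthesis genes likewise moved both ways, in about the shares of all genes. SCD, which makes oleic from stearic acid, read 9.03, 9.0 and 9.05 in GM and 10.07, 10.04 and 10.09 in HFM (1.04 ± 0.04, limma adjusted p = 3.27e-09), and all 3 of its other tested probe sets also rose. FASN, the synthase that makes palmitic acid, had 7.92, 7.74 and 7.75 against 7.04, 7.16 and 7.25 (-0.66 ± 0.08). FADS3 rose by 0.73 and the elongase ELOVL6 by 0.48, while the mitochondrial synthase OXSM fell by 0.72. Of the 21 genes 4 rose, 7 fell and 10 did not pass (19% higher and 33.3% lower, against 20.6% and 37.5% of all genes). The balance became 10 rises and 5 falls after median centring and 8 and 7 with the mean of each gene's probe sets.

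Fat uptake and storage genes were led by VLDLR and PLIN2. VLDLR, a receptor for lipoproteins rich in triglyceride, had 6.10, 6.13 and 6.14 in GM and 7.38, 7.39 and 7.54 in HFM. The fatty acid carriers FABP4 and FABP5 fell by 0.68 and 0.26, and the transporters SLC27A2 and SLC27A4 by 0.43 and 0.38. Of 13 uptake and activation genes 3 rose and 5 fell (23.1% and 38.5%, near the 20.6% and 37.5% of all genes). There were 3 rises and 2 falls after median centring, 5 rises with the mean of probe sets and 3 falls without HFM replicate 3. PLIN2, the coat protein of lipid droplets in most cells, rose from 9.92, 9.91 and 9.83 to 11.21, 11.15 and 11.20 (1.30 ± 0.06), although its second probe set, near background at 3.89 in GM, did not differ. HILPDA, an inhibitor of lipolysis, read 8.59, 8.63 and 8.47 against 8.10, 7.99 and 7.90. PNPLA3, a lipase of droplets, rose by 0.78, and the lipase cofactor ABHD5 by 0.45.

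Of 22 droplet and lipolysis genes 6 rose and 5 fell, which became 10 and 3 after median centring, 7 and 4 after repeated quantile normalisation, and 5 and 6 without GM replicate 3 or with the mean of probe sets. Triglyceride synthesis was mostly not called: 2 of 13 rose and 3 fell, against 6 rises and 2 falls after median centring and 5 and 2 after repeated quantile normalisation. Droplet genes were thus 27.3% higher and 22.7% lower, and triglyceride genes 15.4% and 23.1%, against 20.6% and 37.5% of all genes. The acyltransferases DGAT2, GPAM and GPAT4 fell by 0.64, 0.50 and 0.30, and GPAT3 and AGPAT5 rose by 0.26 and 0.20.

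Genes of mitochondrial fatty acid oxidation fell in about the share of all genes. Of 21, 8 fell (38.1%, while 37.5% of all genes were lower), 3 rose and 10 did not pass, and median centring turned this to 3 falls and 8 rises, and without HFM replicate 3 only 1 rose. CPT2, the inner carnitine transferase, had 7.03, 7.09 and 6.97 in GM and 5.97, 6.10 and 5.96 in HFM (-1.02 ± 0.07), whereas CPT1A, the regulated outer one, differed by -0.14 and did not pass (limma adjusted p = 0.0788). ACADVL, the dehydrogenase for very long chains, rose by 0.74, and ACADM, that for medium chains, fell by 0.58. Of 16 peroxisomal genes 8 fell and 2 rose (50% and 12.5%, against 37.5% and 20.6% of all genes). CROT stood at -0.49 and PHYH at 0.45, while 2 falls were 2-fold or more and the lowest value was -1.39. There were 6 falls and 5 rises after median centring, and 1 rise without GM replicate 2.

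PPAR and LXR targets divided by gene. PDK4, which spares glucose while fatty acids are burnt, had 6.03, 6.16 and 6.19 in GM and 7.67, 7.68 and 7.82 in HFM (1.60 ± 0.06). ANGPTL4, an inhibitor of lipoprotein lipase, rose by 1.13, and ABCA1, which exports cholesterol, by 0.82. These 3 are all rises, but in all 7 of 19 rose and 8 fell (36.8% and 42.1%, against 20.6% and 37.5% of all genes). Of the rises 3 were 2-fold or more, and of the falls 2, and the lowest value was -1.43. The balance turned to 8 and 5 after median centring or repeated quantile normalisation, to 8 and 7 without GM replicate 1 and to 7 and 6 without GM replicate 2 or HFM replicate 3.

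**Figure D3:**
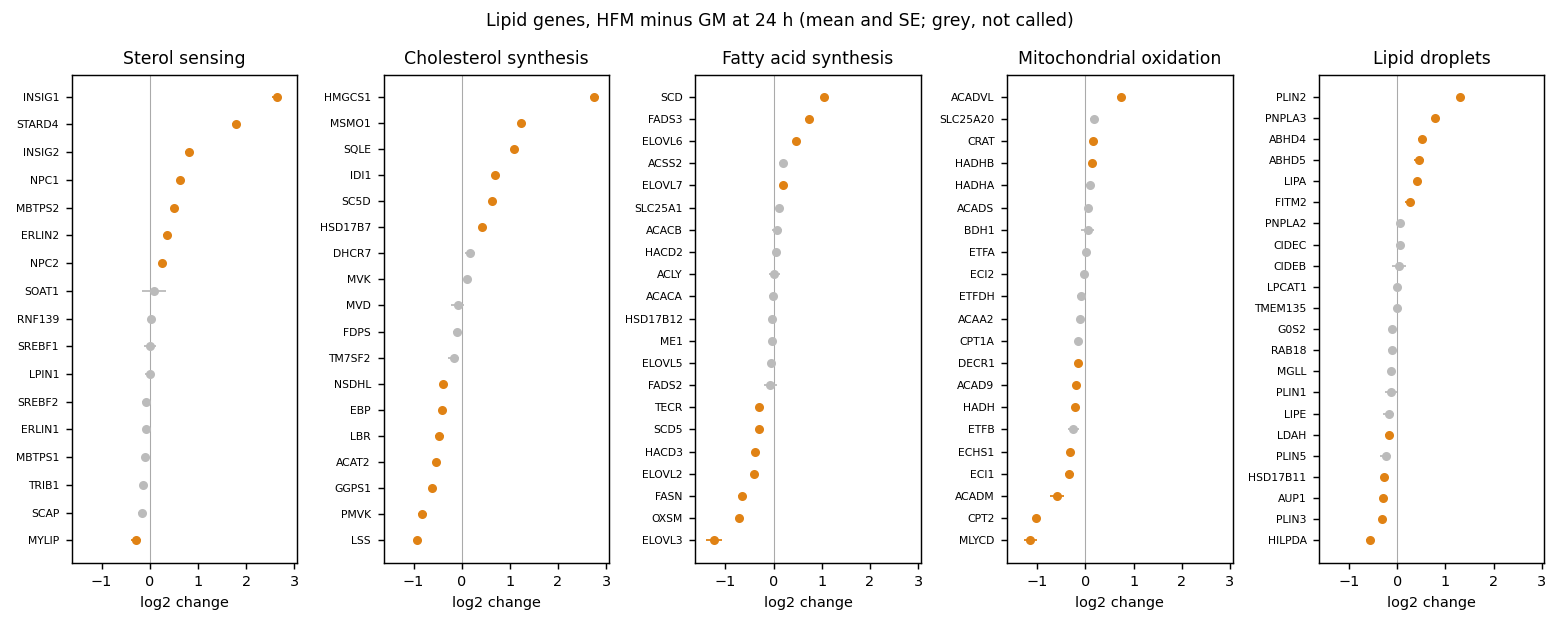
Points give the log2 difference between HFM and GM at 24 hours of each tested gene of 5 lipid lists, with standard errors (n = 3 arrays per medium), and grey points did not pass the test. INSIG1 and HMGCS1 lie furthest to the right, while LSS and FASN lie left of 0 in the same pathways as HMGCS1 and SCD.

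Replication, mitosis and ribosome biogenesis genes fell, while other growth genes moved both ways. In bulk RNA, fewer cells in a phase of the cycle and less transcript per cell cannot be told apart. Of 49 replication and S-phase genes, 47 fell, 1 rose and 1 did not pass, while 37.5% of all genes were lower, and 42 fell and 1 rose after median centring. GINS3, a subunit of the replicative helicase, had 7.44, 7.56 and 7.50 in GM and 5.49, 5.48 and 5.43 in HFM, a 4.11-fold lower level. FEN1, the nuclease that trims lagging strand fragments, read 10.54, 10.55 and 10.54 against 8.67, 8.80 and 8.69 (3.54-fold lower). MCM10, which starts the helicase, went from 8.84, 8.85 and 8.83 to 7.05, 7.0 and 7.06. The helicase subunit MCM2 fell by less, by 0.51, and the cyclin CCNE2 by 1.08.

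The E2F factors differed among themselves. E2F1 was not called, with 7.25, 7.07 and 6.90 in GM and 7.14, 7.20 and 6.86 in HFM. E2F2, another activator, fell by 1.61 on its brightest probe set and was 0.05 on the next. E2F5, a repressor partner of the pocket proteins, fell by 1.69. E2F7, a repressor of E2F targets, was the list's only rise and is named for that, after its value was seen, from 8.96, 9.06 and 9.19 to 10.07, 10.23 and 10.15, with a second probe set that was not called. CDC25A, the phosphatase that releases CDK2, fell by 1.59.

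Of 54 mitosis genes 47 fell, 0 rose and 7 did not pass by limma (0 rose at an unadjusted p under 0.05). After median centring 1 rose and 39 fell, and with the mean of probe sets 1 rose and 44 fell. With probe sets matched to 1 gene preferred, 1 of 52 rose and 43 fell. With the second brightest probe set 2 of 28 rose and 25 fell. SPC25 had 9.23, 9.38 and 9.43 in GM and 7.65, 7.77 and 7.74 in HFM (-1.63 ± 0.07, limma adjusted p = 4.46e-09). KIF11 (-1.32), ESPL1 (-1.22) and HMMR (-1.15), whose windows are shown above, fell, as did CENPI (-1.17), a centromere protein. CCNB1, the cyclin of mitotic entry, read 11.78, 11.83 and 11.86 against 10.90, 10.88 and 10.85. The proliferation marker MKI67 fell by 0.62. Falls in mitosis genes were therefore wide but smaller than 2-fold for all but 7.

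Among the cyclin-dependent kinases and their partners, named inhibitors rose while CCND1 fell. CCND1, the cyclin that answers to growth factors, had 9.58, 9.55 and 9.49 in GM and 8.55, 8.56 and 8.59 in HFM (-0.97 ± 0.05), and its second probe set fell by 0.83. RBL1, the pocket protein p107, fell by 1.65. The inhibitor genes CDKN1B (p27) and CDKN1C (p57) rose by 0.84 and 1.04, and CCNG2, an atypical cyclin of arrested cells, by 1.38. Over the list of 28, 14 fell, 7 rose and 7 did not pass (50% lower and 25% higher, against 37.5% and 20.6% of all genes).

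Immediate early genes and feedback genes of ERK signalling were split. Of 33, 15 fell, 10 rose and 8 did not pass (45.5% lower and 30.3% higher, against 37.5% and 20.6% of all genes). There were 13 falls and 15 rises after median centring and 11 and 14 with the mean of probe sets. ZFP36, which destabilises mRNAs with AU-rich elements, had 7.20, 7.35 and 7.26 in GM and 9.11, 9.27 and 9.21 in HFM, and the phosphatase DUSP5 rose by 1.77. KLF2 (-1.40), ETV5 (-1.22) and SPRED2 (-1.19) fell.

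FOXO and insulin signalling genes leaned higher, with 15 of 31 higher, 9 lower and 7 not called. By share 48.4% were higher and 29% lower, against 20.6% and 37.5% of all genes. TXNIP, an arrestin that restrains glucose uptake and binds thioredoxin, read 8.83, 8.81 and 8.71 in GM and 11.91, 11.94 and 11.91 in HFM, an 8.80-fold difference (3.14 ± 0.07, limma adjusted p = 2.65e-11). Its relative ARRDC4 rose by 1.64 and the repressor BCL6 by 2.30, from 8.45, 8.44 and 8.42 to 10.69, 10.76 and 10.76. IRS2, the insulin receptor adaptor, rose by 0.69. FOXO1 itself, at 0.11, did not pass (limma adjusted p = 0.0798), although it did after median centring (0.29).

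Ribosome biogenesis genes fell: 28 of 36 fell, 2 rose and 6 did not pass, and 22 fell and 3 rose after median centring. NOP2, a methyltransferase of ribosomal RNA, had 8.18, 8.18 and 8.21 in GM and 6.95, 6.88 and 6.93 in HFM, and PNO1 and NOP16, assembly factors, fell by 1.02 and 1.11. Against this direction TAF1D, a subunit of the factor that recruits RNA polymerase I, read 8.08, 8.23 and 8.22 against 11.13, 11.25 and 11.21 (3.02 ± 0.06), while TAF1B of the same complex fell by 1.25. TAF1D hosts small nucleolar RNAs in its introns, and which of its transcripts the probe set reads was not tested. Of 36 translation initiation factors 15 fell (41.7%, near the 37.5% of all genes that were lower), 3 rose and 18 did not pass. Median centring gave 12 falls and 11 rises, and the mean of probe sets 7 rises. EIF5, which triggers GTP hydrolysis at the start codon, went from 10.89, 10.82 and 10.76 to 8.02, 7.87 and 8.0, a 7.27-fold lower level, and all 4 of its other tested probe sets fell.

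Matrix genes were higher, beginning with basement membrane. COL4A1 read 8.65, 8.74 and 8.76 in GM and 9.77, 9.79 and 9.77 in HFM (1.05 ± 0.05, limma adjusted p = 3.96e-09), and its partner chain COL4A2 had 9.30, 9.25 and 9.27 against 10.31, 10.24 and 10.35. Of 19 collagens 10 rose, 1 fell (2 without HFM replicate 3) and 8 did not pass, with a median of 0.31. Of the collagens 52.6% were higher and 5.26% lower, against 20.6% and 37.5% of all genes. COL12A1 and COL18A1 rose by 0.88 and 0.74. The fibrillar chains COL1A1 and COL5A2 did not follow: COL1A1 had 6.54, 6.50 and 6.28 in GM and 6.42, 6.50 and 6.25 in HFM, and COL5A2 fell by 0.76. COL5A1 stood at 0.15 but was close to background, with means of 3.90 in GM and 4.05 in HFM, and COL1A2 was below the filter.

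Enzymes that shape collagen also leaned higher, with 13 of 28 higher, 2 lower and 13 not called. As shares, 46.4% were higher and 7.14% lower, against 20.6% and 37.5% of all genes. The lower genes were 1 without any one array other than HFM replicate 3. LOX, which cross-links collagen and elastin, had 11.29, 11.22 and 11.20 in GM and 12.53, 12.54 and 12.53 in HFM, and both of its other tested probe sets rose. LOXL2 of the same family rose by 1.14. The prolyl hydroxylases P4HA1 (9.01, 9.03 and 9.08 against 10.76, 10.76 and 10.69) and P4HA2 (1.09) and the lysyl hydroxylase PLOD2 (0.88) rose as well.

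Of 39 glycoproteins, proteoglycans and matricellular proteins 25 rose, 3 fell and 11 did not pass, with a median of 0.42. By share 64.1% rose and 7.69% fell, against 20.6% and 37.5% of all genes. SDC4, a heparan sulphate proteoglycan of focal adhesions, had 9.86, 9.87 and 9.80 in GM and 11.15, 11.06 and 11.07 in HFM. POSTN, which binds collagen and integrins, rose from 4.61, 4.27 and 4.18 to 6.22, 6.25 and 5.78, and so from near the filter. FN1 rose by 0.38, and 3 of its 4 other probe sets rose by 0.35 to 0.36. THBS1 did not pass on its brightest probe set (10.89, 11.08 and 11.33 against 11.45, 11.88 and 11.64, limma adjusted p = 0.129), while 5 others rose and 1 fell. CCN1 rose by 0.49, whereas CCN2, another YAP target, differed by -0.22, a call lost after median centring or repeated quantile normalisation and without GM replicate 1 or HFM replicate 2. EMILIN2 fell by 0.97.

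Proteases and their inhibitors rose in 17 of 27 cases and fell in 5 (3 without GM replicate 2 or HFM replicate 3, and 2 after median centring). That is 63% higher and 18.5% lower, against 20.6% and 37.5% of all genes. MMP14, a membrane collagenase, had 7.01, 7.01 and 6.84 in GM and 8.15, 8.11 and 8.08 in HFM, and all 3 of its other probe sets rose. ADAM17, the sheddase of growth factors and cytokines, rose by 1.17, PLAT, the tissue plasminogen activator, by 1.04, and ADAM10 by 0.55. MMP1 differed by -0.17 (0.009 after median centring, and not called without GM replicate 2 or 3 or HFM replicate 1 or 3) and TIMP1 by 0.14, which did not pass.

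The TGF-beta genes held larger changes of single ligands than of the list, in which 14 of 36 rose, 10 fell (6 after either rescaling) and 12 did not pass. By share 38.9% rose and 27.8% fell, against 20.6% and 37.5% of all genes. TGFB2 had 9.30, 9.35 and 9.49 in GM and 11.10, 11.20 and 11.18 in HFM, a 3.43-fold difference, and all 3 of its other tested probe sets rose. INHBA, which makes activin A, rose by 1.05, and ID2, an inhibitor of helix-loop-helix factors, by 1.78. The receptor TGFBR2 and the decoy BAMBI fell by 0.78 and 0.83. Integrin and adhesion genes rose and fell in equal number, 8 each of 30 (26.7% each). There were 15 rises and 4 falls after median centring and 10 and 6 after repeated quantile normalisation. Without GM replicate 2, GM replicate 3 or HFM replicate 3 there were 5 falls. ITGB8, ITGA5 and ITGAV, of integrins that bind fibronectin or latent TGF-beta, rose by 1.09, 0.82 and 0.70.

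In the Hippo list the kinase LATS2, which inactivates YAP, had 7.38, 7.38 and 7.27 in GM and 10.16, 10.19 and 10.15 in HFM, a 7.08-fold difference on 1 probe set, while its dimmer probe set rose by 0.39. F3, tissue factor, fell by 1.40, NF2 by 0.96 and AJUBA, an inhibitor of LATS, by 0.90. Of 23 genes 6 rose and 8 fell (26.1% and 34.8%, near the 20.6% and 37.5% of all genes). These counts became 11 and 4 after median centring and 9 and 7 after repeated quantile normalisation. Among the cell type markers, CDH2 rose by 0.81, and ROBO4, an endothelial marker, SPINT2 and THY1 fell by 0.78, 0.77 and 0.58.

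Outside the lists, some of the largest changes had further probe sets that were all called the same way. The rises included the long noncoding RNA LINC00472 (3.00), MXD1 (2.76), a partner of MAX that opposes MYC, and the histone gene H2BC5 (2.39), whose probe sets may also read other histone genes. NCOA5, a nuclear receptor coactivator, had 7.76, 7.68 and 7.54 in GM and 4.11, 4.31 and 3.54 in HFM, close to the level of the filter. MECOM (-2.50), a transcription factor, PPP1R10 (-2.49), a subunit of protein phosphatase complexes, and PHF23 (-2.43) fell.

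The probe sets of a gene did not always give the same answer. Tested one by one, 58.9% of the 24649 probe sets with 1 gene symbol were called. Of the 6477 genes with several tested probe sets, 4175 were called, and in 1790 of these all further probe sets were called the same way (42.9%). In 865 at least 1 further probe set was called the opposite way (20.7%). Opposite calls stood at 10% of the 180 genes higher by 2-fold or more, at 16.2% of the 340 lower by 2-fold or more and at 21.7% of the 3655 with smaller changes. By number of probe sets they went from 11.4% with 2 to 24% with 3 and 40.9% with 4 or more. These shares are descriptions, since probe sets of a gene are not independent.

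By theme, opposite calls stood at 12% of 108 stress genes, 8.16% of 49 lipid genes, 10.6% of 113 growth genes and 20.7% of 82 matrix genes. Replication genes had 0 opposite calls among 26, and chaperones 1 among 20, whereas TGF-beta genes had 6 among 17 and integrin genes 3 among 8. The stress and growth themes also held lists with more: mitosis genes had 4 among 24, heat shock genes 2 among 9 and tRNA synthetases 2 among 4. Several large rises were read alike by all probe sets of the gene: INSIG1 at 2.63, 2.76 and 2.60, TXNIP at 3.14, 3.16 and 2.88, and DNAJB9 at 2.39, 2.69 and 3.28. DDIT3 has a single probe set, and the further ones of STC2 and PLIN2 were not called. Sizes also differed, as for SQLE, whose 4 probe sets gave 1.09, 1.07, 0.37 and 4.35, and HMGCS1, which gave 2.75 and 4.41.

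**Figure D4:**
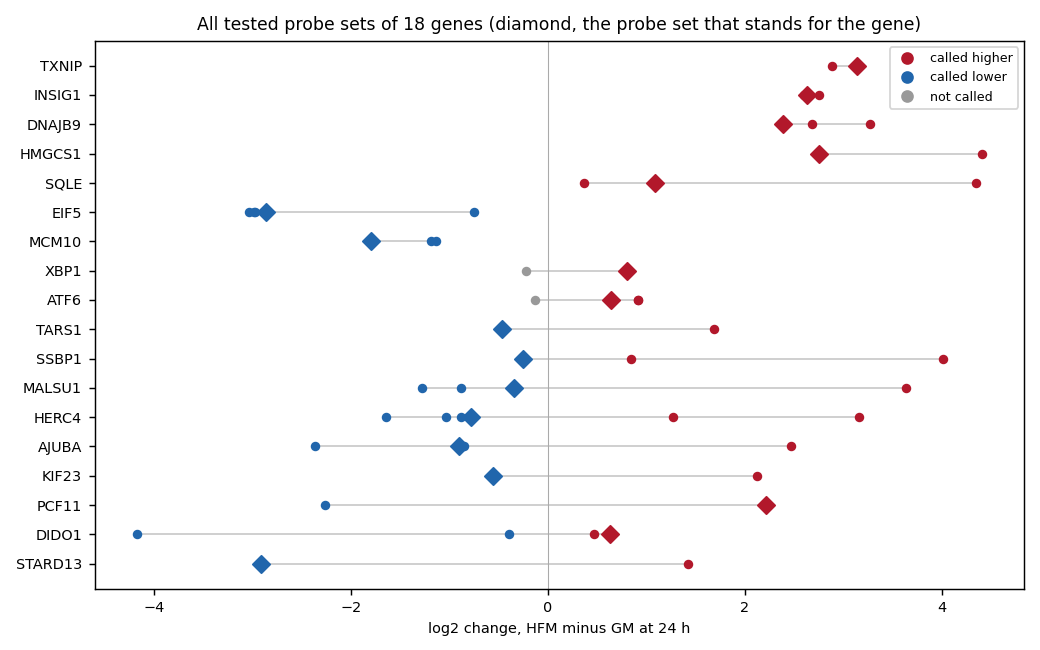
All tested probe sets of 18 genes are placed by their log2 difference between HFM and GM at 24 hours, and the diamond is the brightest probe set, which stands for the gene. The upper genes, such as TXNIP and EIF5, keep to one side of 0, and the lower ones, such as SSBP1, HERC4 and DIDO1, have probe sets called on both sides.

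The 8 genes with the widest gaps between opposite calls show its size. SSBP1, a mitochondrial protein that binds single-stranded DNA, fell by 0.25 on a probe set at 11.74 in GM, and rose by 4.01 on one that went from 5.64 to 9.65. MALSU1, an assembly factor of the mitochondrial ribosome, gave -0.34, -0.89 and -1.28 on 3 probe sets and 3.64 on the fourth. HERC4, a ubiquitin ligase, gave 4 falls, the largest of 1.65, and 2 rises of 3.16 and 1.27. DIDO1 ranged from 0.63 to -4.18, KLF7 from 2.28 to -2.28, and PCF11, a factor of transcript termination, gave 2.21 and -2.26. STARD13 gave -2.92 and 1.43, and AJUBA gave 3 falls and a rise of 2.47. The transcript region that each probe set reads was not analysed here. Isoforms, unspliced RNA, cross-hybridisation and RNA quality, whose controls differed with the medium, therefore cannot be told apart.

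Genes called higher had an opposite call in 21.9% of cases and genes called lower in 20%. Of 7547 further probe sets of called genes, 53.3% were called the same way and 14.6% the opposite way. In 668 cases the further probe set was higher in HFM while the gene was lower, at a median of 0.71 against -0.42, and 225 of these rises were 2-fold or more. The reverse held in 436 cases, of which 68 were 2-fold or more. Probe sets of the type designed to match a single gene were opposite in 17.6% of cases, and those of the type that matches several transcripts in 10.6%. Probe sets within log2 1 of the gene's brightest were opposite in 10.3%, those 1 to 3 below in 13.7% and those 3 or more below in 21.2%.

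The classes of probe sets held different shares of 2-fold changes. Among the probe sets that stand for a gene, 2.28% were higher and 5.2% lower by 2-fold or more. Among the other probe sets of these genes the shares were 7.6% and 5.24%, and among 3914 probe sets with no gene symbol, of which 54.4% were called, 14.8% and 3.83%. The same order was seen at a mean level under log2 6 (1.86%, 9.25% and 16.2% higher) and at 6 to 8 (3.13%, 6.73% and 15.7%), but not at 8 or more (1.99%, 3.71% and 3.5%). It was not tested, and the share of rises therefore depended on which probe sets were counted.

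**Figure D5:**
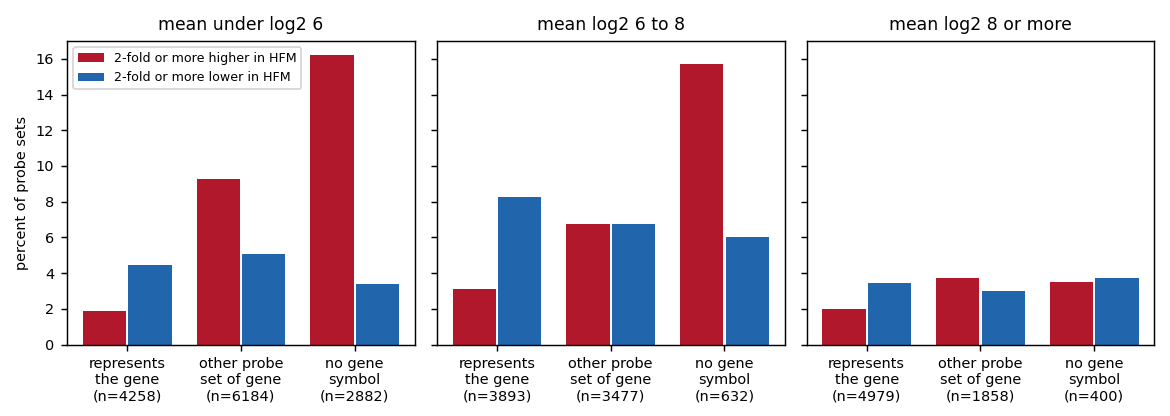
Bars give the percent of probe sets that were called and 2-fold or more higher (red) or lower (blue) in HFM at 24 hours, by mean level and by class. Probe sets with no gene symbol reach 16.2% higher under log2 6 and 15.7% at log2 6 to 8, against 1.86% and 3.13% of the probe sets that stand for a gene.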

How the data were processed

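Gene expression was measured on 12 Affymetrix arrays of 54675 probe sets, of which the 6 taken at 24 hours carry the comparison. The authors deposited log2 values made with GCRMA, per the submitters' processing notes, whose version is not given there; GCRMA corrects the background by probe sequence and normalises between arrays by quantiles, so a global shift in RNA content is removed. The deposited values were used as they are. Probe sets were named through the platform annotation: 41097 had 1 gene symbol, 1801 several and 11777 none. Each gene was read through the probe set with the highest mean over 12 arrays, and a gene entered the test if 3 or more arrays reached log2 4. The limma fit (version 3.58.1 in R 4.3.3, lmFit and eBayes) had 4 group means over all 12 arrays, so that the 12-hour arrays share in the estimate of spread, with Benjamini-Hochberg adjustment over all genes tested.

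Genes were named by rule: a fixed panel, the 12 largest rises and 12 largest falls with level log2 6 or more, no overlap and every further probe set called alike, up to 5 called members per list by size, and the 8 widest gaps between opposite probe sets. Genes shown for a promoter element were taken for the element. The members, panel and 39 lists were chosen with earlier results of these data known. The fit was tested on simulated data. Alternatives were another filter, other probe set rules, median centring, a repeated quantile normalisation, a robust eBayes, only the 24-hour arrays, a minimum fold test, a replicate block and leaving out each array. Arrays give intensities and no counts, so their number limits the precision. Promoter windows came from RefSeq (GRCh38.p14), with an entry for 10590 of the genes tested.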

Additional observations from a re-analysis of the deposited data

Results flagged for a closer look

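The following genes were picked out because the difference between the media differed between 24 and 12 hours, by the interaction term of the limma fit over all genes, in which 52.8% of genes passed. Each value is the difference at 24 hours minus that at 12 hours on the log2 scale. Among stress genes it was 2.09 for DDIT3 (3.22 at 24 hours and 1.12 at 12 hours), 2.09 for DNAJB9, 2.01 for HERPUD1, 1.53 for HSPA5, 1.46 for ATF3 and 1.84 for GDF15. HSPA5 and GDF15 stood at -0.001 and -0.0009 at 12 hours. Among lipid genes it was 1.33 for HMGCS1 and 1.02 for INSIG1, both already higher at 12 hours (1.43 and 1.60), 1.11 for PLIN2, 1.12 for PDK4 and 1.58 for ANGPTL4, whose difference at 12 hours was -0.44. Among growth genes it was -1.79 for MCM10, -2.99 for EIF5, 1.75 for TAF1D, 1.96 for TXNIP and -1.70 for CCNE2, which stood at 0.62 at 12 hours and -1.08 at 24 hours. Among matrix and Hippo genes it was 1.10 for LOX, 1.23 for POSTN and 1.77 for LATS2. All 19 genes had 3 arrays in each of the 4 groups.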

How the results depend on the processing

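Of the 216 named genes, direction and call held for 215 with a filter at log2 5, the other gene not being tested there, 213 with no filter, 207 after repeated quantile normalisation, 197 after median centring and 202 with the mean of probe sets, against 198 of 206 with probe sets matched to 1 gene preferred and 114 of 142 with the second brightest probe set (11 weaker, 16 reversed). Median centring gave 4852 higher genes, against 2700, and turned ATF4 to 0.0215 and MMP1 to 0.009. The test against a minimum of 2-fold called 484 genes, against 983 called and 2-fold or more. With the second brightest probe set, which only 6477 genes have, 3880 genes were called, 1524 higher and 2356 lower, and the values with another sign were XBP1 -0.22, FASN 0.0195, ATF6 -0.13, UGGT2 -0.21, TARS1 1.68, SARS1 0.83, DNAJB1 0.33, PLK3 -0.20, MBTPS2 -0.16, ABHD4 -0.41, E2F2 0.0505, DIDO1 -0.40, KLF7 2.28, PCF11 -2.26, STARD13 1.43 and SSBP1 4.01. With the mean of probe sets they were SREBF2 0.32, TARS1 0.61, SARS1 0.26, MALSU1 0.28, HERC4 0.0127, DIDO1 -0.870, KLF7 0.18, PCF11 -0.0257 and SSBP1 1.53, and with probe sets matched to 1 gene preferred CBS 0.0784, TAGLN 0.018, DIDO1 -0.40 and SSBP1 4.01. The cause was not tested. Leaving out 1 array gave 6919 to 7221 called genes, 2456 to 2501 higher and 4455 to 4720 lower, with 973 to 1007 called and 2-fold or more. It took the call from 9 of these 216 genes, ATF4, TRIB3, CCN2, MMP1, SLC27A4, GPAT4, HACL1, S100A4 and KLF7, and reversed 0. COL5A1 was called only without HFM replicate 2 (0.37). Same-numbered arrays of the 2 media had deviations that correlated at 0.25, 0.0073 and 0.11, so the numbers are not taken as pairs. The replicate block called 7757 genes and changed the call of 0 of the 216 genes. HSP90AA1, mentioned above but not among the 216, was not called with the replicate block. Genes near log2 4 are close to background, which limits their fold differences.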
